A study of Mus musculus with 79 samples.

Results

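Hoxb3 and Hoxb4 are adjacent homeobox genes of the mouse Hoxb cluster, and their RNA was followed in stem cells given 1 uM of retinoic acid (RA). They were taken by name as all rows of either gene: 3 RefSeq transcripts of 29076 in the E14 table, 3 of 35326 in the SCC1-mAID table and 3 of 29039 in the clone table. Total RNA was measured in E14 cells, an established mouse embryonic stem cell line, with 2 libraries at 0 h of RA, 4 each at 2, 4, 6, 48 and 72 h, and 3 at 24 h. Nuclear RNA was measured in SCC1-mAID cells (genotype E14;Rosa26::Tir1;Scc1-mAID-eGFP), in which auxin triggers destruction of the tagged cohesin subunit SCC1. All 4 groups of 3 libraries carry the tag and the Tir1 transgene: untreated, RA for 4 h, auxin for 6 h, and auxin for 6 h with RA for the last 4 h. Nuclear RNA was also measured in 3 single clones of E14, with 2 libraries per clone at 7 times of RA from 0 to 74 h (the early times as in E14): G4 (E14;HoxTransEwt), which kept a transient enhancer of the Hoxb locus, and E3 and H12 (E14;HoxTransEdel), which lost it. G4 is the sole wild-type clone, so a difference of E3 or H12 from G4 cannot be told apart from a difference between clones. Auxin acts on a protein and the deletion on an enhancer, so the RNA tables check neither label.

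Hox genes encode homeodomain transcription factors that tell cells their position along the head-to-tail axis. Genes of a cluster are switched on in the order in which they lie, and RA, made by embryonic mesoderm, is a natural inducer of the 3′ genes, acting through nuclear receptors (Rara, Rarb, Rarg with Rxr partners) that bind DNA at direct repeats. In the embryo Hoxb3 and Hoxb4 have anterior limits in the hindbrain, where RA response elements act on Hoxb4. Cohesin, a ring that extrudes DNA loops, brings distant enhancers and promoters together. Stem cells grown with leukemia inhibitory factor keep the cluster nearly silent until RA is added.

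Both genes lie on the plus strand of chromosome 11 (build mm10). Hoxb4 (NM_010459) spans 96318267 to 96321638, which is 3372 bp, and Hoxb3 starts 1487 bp after its end. The long Hoxb3 transcript (NM_001079869) spans 96323126 to 96347930, or 24805 bp, and the short one (NM_010458) spans the last 4162 bp of it, from 96343769, so 16.8% of the long span. In the authors' deposited table all 3 transcripts are classed as induced from 2 h of RA. How reads were counted is not stated. By the values, a transcript's count takes in its introns in the nuclear tables and mostly exons in the E14 table, so long and short Hoxb3 share most of their reads in E14 but differ in the nuclear sets. RNAs of the opposite strand overlap this stretch, and whether counting used the strand is not stated.

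The stretch before the Hoxb4 start is shown because Hoxb4 was the first of the 10 Hoxb genes to pass the test in E14 cells. The 250 bases upstream of the RefSeq start (GRCm38.p6, chr11:96318017-96318266, plus strand) are printed 5′ to 3′, with a single AGGTCA core, the unit that nuclear receptors bind, in capitals.
Hoxb4 upstream: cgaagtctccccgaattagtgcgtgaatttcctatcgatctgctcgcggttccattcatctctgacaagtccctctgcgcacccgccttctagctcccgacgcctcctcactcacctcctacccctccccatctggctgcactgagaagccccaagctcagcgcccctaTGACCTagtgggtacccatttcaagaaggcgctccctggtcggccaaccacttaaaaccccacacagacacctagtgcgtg
The capitals mark TGACCT, which is AGGTCA read on the minus strand, 81 to 76 bases before the start. That core occurs in 14% of the 32851 RefSeq starts with a stretch of the same length. Its direct repeats with a gap of 2 or of 5 bases, the forms to which RA receptors bind, were searched on both strands, as were the other motifs. Each occurs in 0.00913% of starts and is not in this window. Nor are GGTTCA (8.85% of starts), the NF-Y box CCAAT (33.8%), the E box CACGTG (6.02%) and the Hox and Pbx composite site (7.68%). The AGGTCA count includes the starts that hold either paired form.

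An E14 library held between 2352114 and 21082331 reads, an SCC1-mAID library between 3126363 and 7499040, and a clone library between 4754309 and 10450047, few of them from the members early on. Levels are CPM, counts scaled to library size by TMM, with SD over libraries. Changes are log2 fold changes ± approximate SE from edgeR's quasi-likelihood test, called at a Benjamini-Hochberg adjusted p under 0.05 over all rows of a set (15085 in E14, 14031 in SCC1-mAID, 15924 in the clones). The stem cell label held at the start: all 10 markers (such as Pou5f1 and Nanog) were detected at 0 h, summing to 3962 to 3994 CPM in E14, 3933 to 4275 in untreated SCC1-mAID cells and 2335 to 2959 in the clones. In bulk RNA, fewer expressing cells and less RNA per cell cannot be told apart. The submitters call the E14 libraries biological replicates; for the other sets nothing says that libraries came from separate cultures, so p-values measure the spread between these libraries.

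Hoxb4 rose within 2 h of RA in E14 cells, and Hoxb3 was called from 4 h on. Whether the 2 genes differ in timing was not tested. Hoxb4 was at 0.125 and 0.43 CPM at 0 h (2 and 9 reads) and at 3.06, 2.90, 2.61 and 3.62 CPM at 2 h, so the groups did not overlap. Its rise was 3.30 ± 0.51 (adjusted p = 5.88e-04, higher in 4 of 4 libraries than at 0 h), where 0.404% of all rows were called higher. As a ratio of reads this is 10.3-fold, with a 95% counting interval from 5.55 to 21.3. Without replicate 3 at 0 h, the lower of the pair, the estimate was 2.76 and no longer called.

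The long Hoxb3 transcript had 1 and 5 reads at 0 h, or 0.0627 and 0.239 CPM, and 1.43, 0.537, 1.31 and 1.31 CPM at 2 h. All 4 libraries were above both 0 h libraries, but the change of 2.70 ± 0.81 was not called (adjusted p = 0.214). DESeq2 called it at 2.83, and so did a fit on replicates 3 and 4 alone, the numbers present at 0 h, at 2.89 (a fit added after seeing the data). At 4 h the libraries held 1.10, 1.38, 1.84 and 2.35 CPM, and the rise was called at 3.23 ± 0.77 (adjusted p = 0.0213; 1.54% of rows were called higher). That call was lost without either 0 h library or without replicate 3 or 4 at 4 h (2.69 to 4.34), so at these read numbers the hour at which Hoxb3 passed the test is not firm.

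Both genes climbed further between 6 and 24 h. Hoxb3 stood at 0.991, 2.20, 4.45 and 5.30 CPM at 6 h and at 9.91, 21.5 and 21 CPM at 24 h. The groups did not overlap, and this step was called at 2.49 ± 0.40 (adjusted p = 1.34e-04), where 11.9% of rows were called higher. For Hoxb4 the libraries rose from 5.20, 8.27, 9.44 and 8.72 to 20.1, 27.1 and 29.5 CPM, again with no overlap. That step was 1.69 ± 0.28 (adjusted p = 1.19e-04). In both genes replicate 1 was the lowest library at 6, 24, 48 and 72 h.

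After 24 h neither gene was called to change, though the 24 and 48 h libraries of Hoxb3 did not overlap. Hoxb3 reached 29.8 ± 7.69 CPM at 48 h and 33.4 ± 11.6 at 72 h (SD, n = 4 each). Hoxb4 reached 38.4 ± 13.8 and then 31.9 ± 10.7 CPM. Neither step was called for either gene (11.1% of rows were called higher from 24 to 48 h, and 12.5% in either direction from 48 to 72 h): from 24 to 48 h the changes were 0.78 ± 0.36 for Hoxb3 (adjusted p = 0.123) and 0.60 ± 0.27 for Hoxb4 (0.108), and from 48 to 72 h they were 0.15 ± 0.32 and -0.27 ± 0.24. With replicates 3 and 4 alone, both 24 to 48 h steps were called (0.71 and 0.77). The authors' own scaling moves the median change of all rows from 48 to 72 h by 0.22, so late levels lean on the scaling. Ordered by level, the times of Hoxb3 followed the clock, with overlapping ranges between 2, 4 and 6 h and between 48 and 72 h, and those of Hoxb4 did so up to 24 h, then 72 h and last 48 h, with overlapping ranges between 2, 4 and 6 h and between 24, 72 and 48 h. Against 0 h, both genes were called at each time from 4 to 72 h, ending at 7.54 ± 0.66 for Hoxb3 and 6.67 ± 0.47 for Hoxb4 at 72 h (read ratios of 202.5, counting interval 92.2 to 555.1, and 107.3, from 59.3 to 216.9), where 30.4% of rows were called higher (2.17% at 6 h, 14.1% at 24 h and 28.8% at 48 h).

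**Figure D1:**
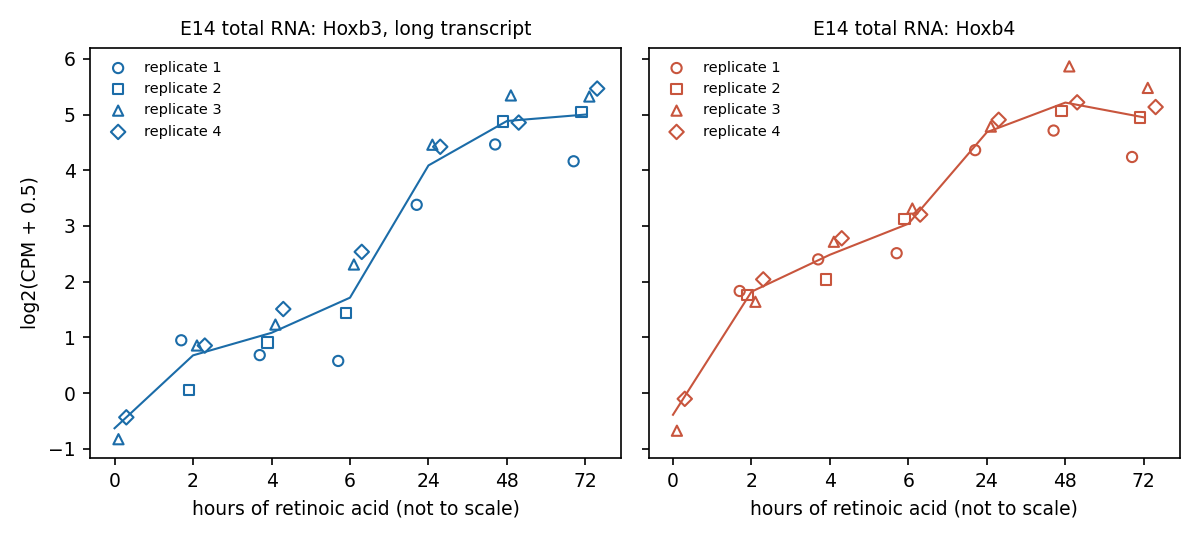
Levels of the long Hoxb3 transcript (left) and Hoxb4 (right) in E14 total RNA, as log2(CPM + 0.5) against hours of RA, with a symbol per library and a line through the mean of each time. Hoxb4 at 2 h (2.61 to 3.62 CPM) is clear of its 0 h libraries, and replicate 1 is the lowest from 6 h on in both panels.

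Hoxb4 was the more abundant of the pair per length early, and the gap narrowed. In the authors' FPKM, which divides by exonic length, Hoxb4 at 2 h was at 0.646, 0.662, 0.566 and 0.779 and long Hoxb3 at 0.228, 0.0929, 0.214 and 0.213. At 72 h Hoxb4 was at 5.13, 6.90, 12 and 9.63 and Hoxb3 at 3.67, 5.61, 8.17 and 9.20. Hoxb3 was thus the lower in each of these 8 libraries. The log2 ratio of Hoxb3 to Hoxb4 lay between -2.83 and -1.12 in the 12 libraries from 2 to 6 h and between -1.42 and -0.0662 in the 11 from 24 to 72 h. The ranges overlapped, and at 72 h alone the ratio was -0.35 ± 0.22 (SD, n = 4).

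The nuclear sets gave the same order with the reads divided by the whole span, a scale on which intronic reads count. In the 18 clone libraries from 2 to 6 h the ratio lay between -3.29 and -1.71, and in the 18 from 24 to 74 h between -2.47 and -0.434. At 74 h it was -0.50 ± 0.09 in G4, -0.93 ± 0.15 in E3 and -1.08 ± 0.06 in H12 (SD, n = 2 each). The G4 libraries were the highest and did not overlap with those of either deletion clone. Ratios in the E14 and clone sets rest on different lengths and are not set against each other.

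**Figure D2:**
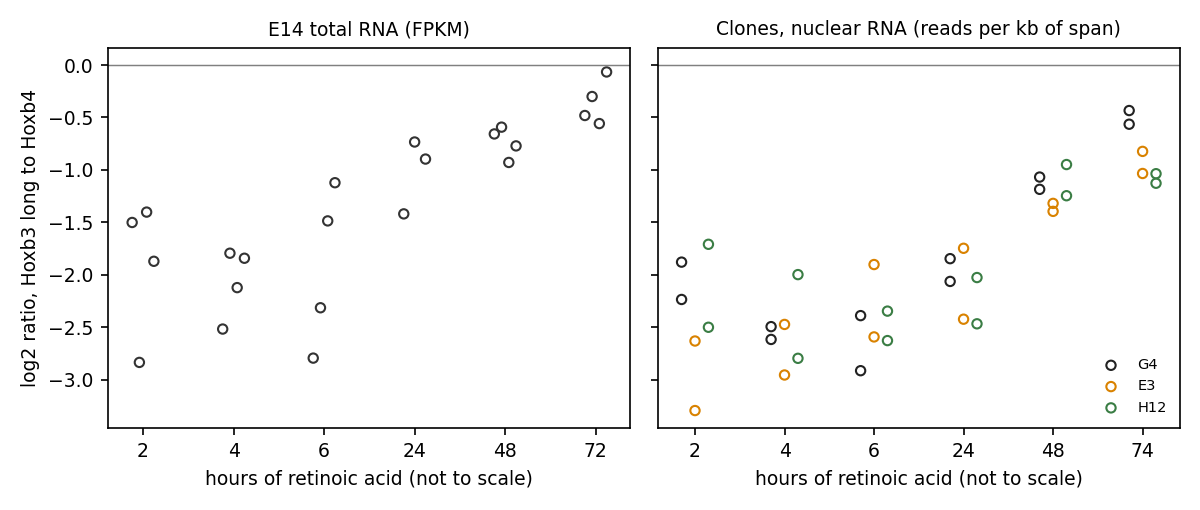
Log2 ratio of long Hoxb3 to Hoxb4 per length in each library, in E14 total RNA by FPKM (left) and in the clones by reads per kilobase of span (right), against hours of RA. A point is a library and 0 marks equal levels; the ratio is under 0 in each library drawn and rises late, from -2.83 to -1.12 at 2 to 6 h up to -0.56 to -0.07 at 72 h in E14.

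Other genes of the pathway show what else moved in the E14 course. Of the 10 Hoxb genes 1 was called higher at 2 h (Hoxb4), 5 at 4 h, 7 at 6 h and 10 from 24 h on. Among all rows, 0.404%, 1.54%, 2.17% and 14.1% were called higher at 2, 4, 6 and 24 h. The list's median at 2 h was 2.37, against 0.01 over all rows. At 4 h the called genes with the smallest adjusted p were Hoxb4 (4.08 ± 0.49), Hoxb5, Hoxb2 and Hoxb3. Hoxb5 went from 0.0791 ± 0.0232 CPM (3 reads) to 1.19 ± 0.236, and Hoxb2 from 0.118 ± 0.0992 (4 reads) to 2.16 ± 1.59. Of the 5 genes of Hox groups 3 and 4 in other clusters, only Hoxa3, the group 3 gene of the Hoxa cluster, was called at 2 h (3.20 ± 0.47). All 5 were called higher at 72 h, where 30.4% of all rows were called higher. Among them was Hoxc4, from 0.103 ± 0.057 CPM (4 reads) at 0 h to 31.0 ± 13.2.

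Of 18 RA receptors and early targets, 7 rose at 2 h and none fell. They include Stra8, a classic RA-induced gene, at 2.59 ± 0.25, the retinal reductase Dhrs3 at 2.03 ± 0.22, the RA-degrading hydroxylase Cyp26a1 at 3.20 ± 0.35 and the corepressor Nrip1 at 1.79 ± 0.23. Of 9 Hox cofactors, which bind DNA with Hox proteins, 0 were called at 2 h. Of all 15085 rows, 61 were called higher then and 14 lower. At 72 h 7 cofactors were called, led by Meis1 at 6.68 ± 0.42, where 4588 rows were called higher and 4424 lower. Of 11 tested factors that act on Hoxb3 or Hoxb4 regulatory DNA, 0 were called at 2 h. With so few rows called at 2 h, a count of 0 sets neither list apart. At 24 h the caudal factors Cdx1 and Cdx2 were called higher, at 5.46 ± 0.94 and 3.24 ± 0.95, and Usf1 was called lower at -0.41 ± 0.14.

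Some noncoding RNAs of the cluster were followed as well. The microRNA gene Mir10a, which lies just upstream of Hoxb4, had 0 reads at 0 h. So did the antisense transcript Hoxb5os, whose span on the minus strand (96291037 to 96306910) does not reach Hoxb4. At 72 h Mir10a was at 1.10 ± 1.05 CPM (13 reads in all) and Hoxb5os at 13.2 ± 2.90 CPM (159 reads; n = 4 each). Both were called higher from 24 h on. The long noncoding gene Gm53, upstream in the cluster, was at 3.19 ± 0.69 CPM at 0 h and 3.53 ± 2.38 at 72 h.

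Likeness of time profile was measured as Pearson's r of group means on the log2(CPM + 0.5) scale over the 7 E14 times, a description with 7 points that share libraries and so carries no p. The tested genes most like Hoxb3 were Mmd (0.998), Foxa1, Hoxa5, Trim56 and Hoxb5. Those most like Hoxb4 were the receptor gene Rarb (0.995), Hoxa3, the retinol transporter gene Stra6 and Zfp703. Hoxb4 ranked 282 among 15083 genes in likeness to Hoxb3 (r = 0.969). Over the 21 clone and time groups the adjoining pair were each other's most similar gene (r = 0.986). Hoxaas2, Foxa1, Hoxa2 and Hoxa3 came next for Hoxb3, and Hoxa3, Foxa1, Rarb and Hotairm1 for Hoxb4.

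The markers of other cell types moved over the same course: between 0 and 72 h the summed CPM of 8 extra-embryonic endoderm markers went from 259.2 to 269.4 up to 1536 to 2866, that of 8 hindbrain and neural markers from 94.6 to 110.9 up to 146.5 to 361.3, and that of the 10 stem cell markers down to 675.7 to 2105. The 6 fibroblast markers went from 101.8 to 103.3 CPM at 0 h to between 64.4 and 893 at 4 h and between 533.8 and 795 at 72 h. The 6 mesoderm markers went from 5.83 to 8.84 CPM at 0 h to between 5.47 and 38.1 at 4 h and between 21.5 and 41.7 at 72 h. The 6 trophoblast markers summed to 114 to 120.2 CPM at 0 h and 104.6 to 169.7 at 72 h. No marker was at 0 at 0 h, and Mesp1 and Elf5 were at 0 at 72 h. Their part in the rise of Hoxb3 and Hoxb4 was not tested.

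The SCC1-mAID set asks how the early response to RA depends on cohesin. Both genes rose with RA, with and without auxin. Long Hoxb3 was at 0.402, 0.662 and 0.679 CPM in untreated cells (10 reads) and at 6.14, 7.02 and 5.55 CPM with RA (92 reads). The groups did not overlap, and the rise was 3.41 ± 0.41 (adjusted p = 5.61e-05), where 1.85% of rows were called higher. Hoxb4 went from 0.268, 0.331 and 0.679 to 6.32, 6.76 and 6.80 CPM, a rise of 4.00 ± 0.45 (adjusted p = 3.19e-05). With auxin, long Hoxb3 went from 0, 0.251 and 0.788 CPM to 3.10, 3.77 and 2.36 CPM, a rise of 3.01 ± 0.50 (adjusted p = 0.00168), where 1.82% of rows were called higher. Hoxb4 with auxin went from 0, 0.502 and 1.38 to 7.08, 7.38 and 6.30 CPM, by 3.32 ± 0.41 (adjusted p = 9.23e-05).

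Under RA, cells given auxin held less long Hoxb3 RNA in each library, while the Hoxb4 libraries overlapped. Long Hoxb3 averaged 3.08 ± 0.703 CPM with auxin and RA against 6.24 ± 0.740 with RA (SD, n = 3 each), and all 3 libraries lay below the 3 with RA alone. The change of -0.97 ± 0.30 was not called (adjusted p = 0.363), where 0.321% of rows were called lower. Hoxb4 averaged 6.92 ± 0.561 against 6.63 ± 0.266 CPM with overlapping libraries, a change of 0.07 ± 0.29 (adjusted p = 0.970). The authors' own scaling moves the median of all rows by -0.36 in this comparison and turns the Hoxb4 change to -0.29, while long Hoxb3 comes to -1.36. Without RA, auxin left 6 reads of long Hoxb3 against 10 untreated and 11 of Hoxb4 against 7, and neither was called (adjusted p = 0.795 and 0.704; 0.235% of rows were called). The RA response was not called to differ with auxin by edgeR's interaction test, at -0.40 ± 0.84 for Hoxb3 and -0.68 ± 0.73 for Hoxb4, and that test called 0 of 14031 rows, or 0% (974 at an unadjusted p under 0.05; 5 called by DESeq2 and 0 by limma). Both interaction estimates turned positive without replicate 3 of auxin alone, the library with most of that group's reads.

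How the reads of the long Hoxb3 transcript lay over its span is given for these groups as a description, and the difference between the spans was not tested. Of the long transcript's reads under RA, 25% lay in the short span (23 of 92; 20.6 to 33.3% by library), against 43.6% with auxin and RA (24 of 55; 36 to 66.7%). The libraries of the 2 groups did not overlap. The short span itself held 1.62 ± 0.625 CPM with RA and 1.42 ± 0.135 CPM with auxin and RA, with overlapping libraries. It fell under the low-count filter and was not tested. Tested alone, the upstream 20643 bp changed by -1.37 ± 0.37 between auxin with RA and RA (adjusted p = 0.200; a row added after seeing the data). In untreated cells 9 of the 10 long Hoxb3 reads lay in the short span, so the upstream part held 1 read there. The log2 ratio of long Hoxb3 to Hoxb4 per length was -2.97 ± 0.18 with RA and -4.07 ± 0.22 with auxin and RA (SD, n = 3 each), and with the short span in place of the long one it was -2.40 ± 0.495 and -2.59 ± 0.249. Whether the ratio differs between these groups was not tested.

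**Figure D3:**
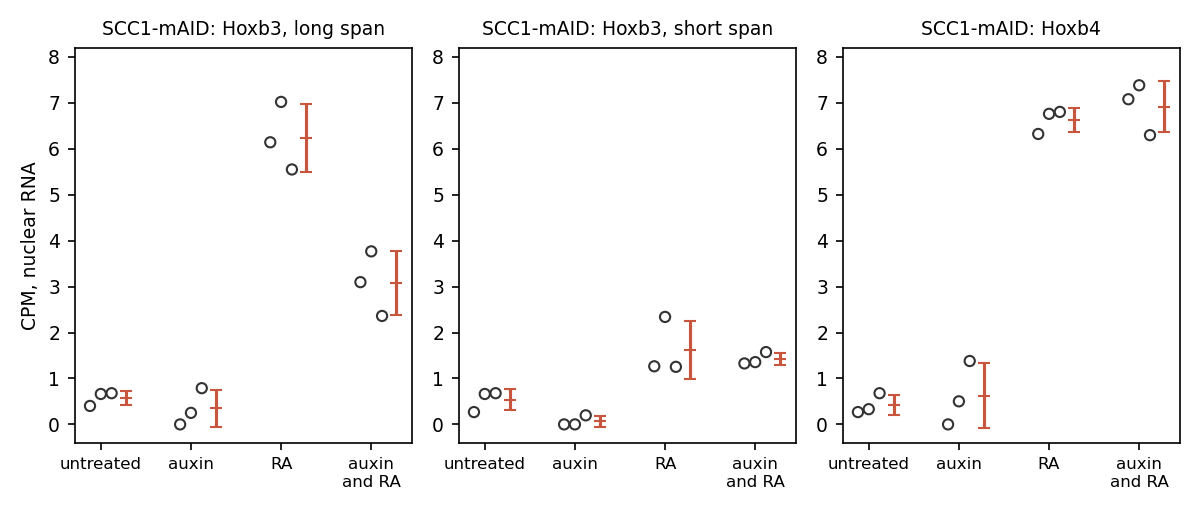
CPM of the long Hoxb3 span, the short Hoxb3 span and Hoxb4 in nuclear RNA of SCC1-mAID cells, with a circle per library and the mean ± SD of each group in red. Long Hoxb3 with auxin and RA (2.36 to 3.77) lies below RA alone (5.55 to 7.02), while the Hoxb4 libraries of these groups overlap.

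With RA 1.85% of all rows were called higher in this set, and 1.82% with RA in auxin. Of the 17 RA pathway genes tested in it, 9 rose with RA and 10 with RA in auxin. Auxin changed 2 of them under RA, both lower: the RA hydroxylase gene Cyp26b1 by -3.29 ± 0.26 (adjusted p = 3.93e-06) and Nrip1 by -0.996 ± 0.151. The cofactor Meis2 was lower as well, by -1.69 ± 0.26, as the sole cofactor called of 9. Among the 4 Hoxb genes tested, 3 rose with RA (Hoxb1, from 1 read to 79, besides Hoxb3 and Hoxb4) and 0 changed with auxin under RA. The median of those 4 was -0.24, against 0.02 over all rows.

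The clones ask whether the transient enhancer shapes RNA levels of the locus over time. At 0 h the long Hoxb3 transcript had 1 read in G4, 5 in E3 and 3 in H12, and Hoxb4 had 4, 4 and 2, over 2 libraries each. No fold from these is given, as it would rest on a few reads. In each clone both genes were called higher than at 0 h at all 6 times, and the short Hoxb3 span at 15 of 18. Of all rows, 1.24, 2.84, 3.33, 15.7, 25.2 and 28.5% were called higher in G4 at these times in turn, 1.46, 1.88, 2.94, 16, 26.8 and 28.1% in E3, and 1.93, 2.22, 3.36, 18.3, 26.9 and 29.3% in H12. All 3 clones also shared the step between 6 and 24 h. In G4 it was 2.49 ± 0.21 for long Hoxb3 and 1.75 ± 0.26 for Hoxb4, where 9.72% of rows were called higher, in E3 1.58 ± 0.22 and 1.35 ± 0.29, and in H12 2.15 ± 0.21 and 1.91 ± 0.27, all called (12.3% and 13.6% of rows were called higher in E3 and H12).

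After 24 h the wild-type clone and E3 kept gaining Hoxb3 RNA up to 74 h, and H12 gained it up to 48 h. Long Hoxb3 in G4 stood at 48.7 and 69.7 CPM at 24 h, 148.5 and 152.5 at 48 h, and 288.5 and 352.7 at 74 h. Each step was called, at 1.35 ± 0.19 and 1.09 ± 0.18 (9.82% and 5.50% of rows were called higher). From 24 to 48 h long Hoxb3 in E3 rose by 1.35 ± 0.19 as well (adjusted p = 4.83e-06). In that step 1889 of 15924 rows were called higher. In H12 its mean went from 52.5 to 118 CPM over the same step, or 2.25-fold in the fit. From 48 to 74 h long Hoxb3 rose in E3 by 0.88 ± 0.18 (adjusted p = 0.00145) and was not called in H12. Hoxb4 in G4 went from 27.7 and 34.1 to 42.3 and 47.2 and then to 58.0 and 64.8 CPM. Its libraries did not overlap from one time to the next, but neither step was called, at 0.53 ± 0.23 (adjusted p = 0.113) and 0.46 ± 0.23 (0.212).

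**Figure D4:**
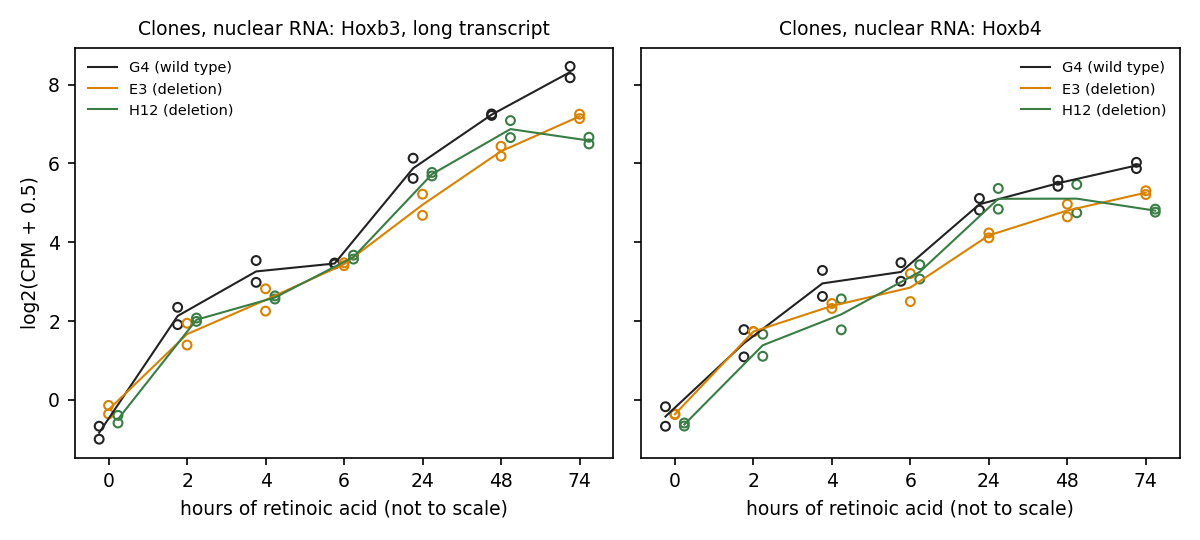
Levels of long Hoxb3 (left) and Hoxb4 (right) in nuclear RNA of clones G4, E3 and H12, as log2(CPM + 0.5) against hours of RA, with a circle per library and lines through the means. At 4 h both G4 libraries lie above the deletion clones for Hoxb3, at 6 h the clones lie close together, and at 74 h the G4 libraries (288.5 and 352.7 CPM for Hoxb3) lie above those of both deletion clones.

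E3 lagged from 24 h on. Its long Hoxb3 libraries held 36.8 and 25.2 CPM at 24 h, 72.2 and 86.0 at 48 h and 151.8 and 140.4 at 74 h, below both G4 libraries each time. Against G4 the changes were -0.93 ± 0.19 (adjusted p = 0.0165), -0.93 ± 0.18 (0.00373) and -1.13 ± 0.18 (1.57e-04), with 0.352%, 1.23% and 2.96% of rows called lower. Without a single library of E3 or G4 the 24 h call was lost (replicate 2 of either clone), and so was the 48 h call (replicate 1 of either); with only the compared groups in the fit, or in limma, neither was called. Hoxb4 in E3 held 16.8 and 18.4, 24.5 and 30.8, and 36.5 and 39.1 CPM at these times, below G4 in each library. Its changes of -0.81 ± 0.25, -0.69 ± 0.23 and -0.70 ± 0.23 were not called (adjusted p = 0.207, 0.145 and 0.0823).

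H12 stayed near G4 until 48 h and fell behind afterwards. Long Hoxb3 in H12 was at 50.9 and 54.2 CPM at 24 h, within the G4 libraries, at 100.4 and 135.6 at 48 h, below them, and at 89.8 and 101.0 at 74 h. The changes against G4 were -0.17 ± 0.19, -0.35 ± 0.18 and -1.75 ± 0.18, with only the last called (adjusted p = 2.11e-08), where 5.65%, 6.45% and 12.9% of rows were called lower. Hoxb4 in H12 was at 28.2 and 40.7, 26.4 and 43.7, and 26.7 and 28.2 CPM. Its 74 h libraries were below both of G4, at -1.16 ± 0.24 (adjusted p = 4.89e-04), and those at 24 and 48 h were not called, at 0.14 ± 0.24 and -0.36 ± 0.23.

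At 74 h the H12 cultures also differed in the summed RNA of markers of another cell type. Such a sum leans on its most abundant genes, and single markers are not given. The 8 extra-embryonic endoderm markers (such as Gata6, Sox17 and Dab2) were all detected and summed to 12500 to 14090 CPM in H12, against 1335 to 1940 in G4 and 1420 to 1761 in E3; at 48 h the sums were 2422 to 2735, 1055 to 1185 and 786 to 1417. The part of that RNA in the H12 result was not tested. The 6 fibroblast markers summed to 1064 to 1184 CPM in H12, 617.9 to 655 in E3 and 192.4 to 350.8 in G4 at 74 h, and the 6 trophoblast markers to 87.1 to 106, 105.7 to 111.4 and 30.2 to 58.8; their part was not tested either. The hindbrain and neural marker sums at 74 h overlapped between G4 (390.5 to 411.6 CPM) and H12 (313.7 to 528.4), and in E3 were 313.4 to 329.2; Egr2 was at 0 in G4, and no marker of this list was at 0 in the other clones.

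**Figure D5:**
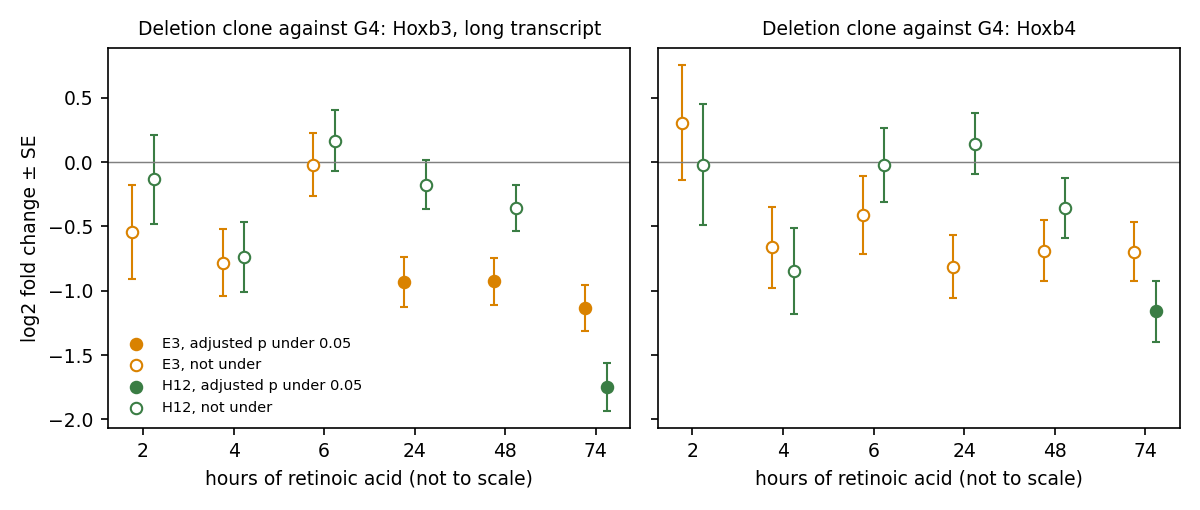
Log2 fold change ± SE of E3 and H12 against G4 at each time of RA, for long Hoxb3 (left) and Hoxb4 (right), filled where the adjusted p was under 0.05. E3 is called for Hoxb3 at 24, 48 and 74 h, and H12 at 74 h for both genes.

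Taking the mean of both deletion clones against G4, long Hoxb3 was called lower at 48 h (-0.64 ± 0.15, adjusted p = 0.0110, in 4 of 4 libraries; 2.52% of rows were called lower) and at 74 h (-1.44 ± 0.15, adjusted p = 2.92e-08, 4 of 4; 9.40%). The 48 h call was lost without either G4 library, without replicate 1 of H12, in limma and with only the compared groups fitted. Hoxb4 was called at 74 h alone (-0.93 ± 0.19, adjusted p = 0.00103, 4 of 4). Earlier, the changes of long Hoxb3 and Hoxb4 were -0.34 ± 0.31 and 0.14 ± 0.40 at 2 h, -0.76 ± 0.23 (adjusted p = 0.0541) and -0.75 ± 0.28 (0.145) at 4 h, 0.07 ± 0.21 and -0.22 ± 0.25 at 6 h, and -0.55 ± 0.16 (0.0660) and -0.33 ± 0.21 at 24 h, none called in the fit of all groups (3.3%, 3.19%, 3.94% and 1.95% of rows were called lower). At 4 h all 4 deletion libraries held less long Hoxb3 (4.26 to 6.55 CPM) than both G4 libraries (7.40 and 11.1). DESeq2 called that difference, as did a fit with all transcripts as rows, which also called the 24 h difference (-0.56). By edgeR the response from 0 h was not called to differ between deletion clones and G4 for either gene at any of the 6 times, with the 0 h groups at 1 to 5 reads. Limma on the deposited signal called the long Hoxb3 response at 2 of these times, and edgeR without replicate 1 of G4 at 74 h called it at 1. Of all rows 0% were called there at 2, 4, 6 and 24 h, 0.327% at 48 h and 6.95% at 74 h; at an unadjusted p under 0.05 the first 4 times had 207, 334, 281 and 549 rows, DESeq2 called 0, 0, 0 and 1, and limma 2, 0, 0 and 0.

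At 74 h the long and short spans of Hoxb3 moved alike. The short span in G4, E3 and H12 averaged 70.6 ± 4.01, 33.5 ± 4.45 and 18.2 ± 1.86 CPM at 74 h (SD, n = 2 each). Its change in the deletion clones was -1.51 ± 0.20 (adjusted p = 1.45e-06). Tested alone, the upstream part changed by -1.42 ± 0.16. Of the long reads, 22.2% lay in the short span in G4, 23.3% in E3 and 19.1% in H12 at 74 h. Early on the spans were less alike, at few reads. At 4 h the short span changed by -1.42 ± 0.43 and the upstream part by -0.58, neither called in the fit of all groups. The short span then held 26% of the long reads in G4 (31 reads), 14.4% in E3 (13) and 18.3% in H12 (13). At 2 h the changes were -1.08 and -0.12, also not called. Whether the spans differ was not tested.

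The deletion clones were not alike. E3 held less long Hoxb3 than H12 at 24 h (-0.76 ± 0.19, adjusted p = 0.00898) and 48 h (-0.57 ± 0.18, 0.0297), and more at 74 h (0.61 ± 0.18, 0.0306), where 5.33%, 8.04% and 3.30% of rows were called in those directions. Leaving out single libraries moved these to between -1.06 and -0.49, -0.77 and -0.33, and 0.51 and 0.68, and the calls were lost without replicate 2 of E3 or of H12 at 24 h, without replicate 1 of E3 or replicate 2 of H12 at 48 h, and without any of the 4 libraries at 74 h. Hoxb4 was lower in E3 than in H12 at 24 h (-0.96 ± 0.25, adjusted p = 0.00971), a call lost without any of 3 of the 4 libraries.

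From 48 to 74 h, long Hoxb3 rose in G4 and in E3 (0.88 ± 0.18, adjusted p = 0.00145; 3.57% of rows were called higher) and was not called in H12 (-0.30 ± 0.18, adjusted p = 0.189; 35.8% of rows were called). The change over this interval was lower in H12 than in G4 by -1.40 ± 0.25 (adjusted p = 8.30e-04) and than in E3 by -1.19 ± 0.26 (0.00773), a contrast added after seeing the data, where 6.70% and 2.73% of rows were called lower. The difference from E3 was no longer called in limma, with only the compared groups, or without replicate 1 of E3 at 48 h (-1.04) or at 74 h (-1.11). Between E3 and G4 it was -0.21 ± 0.25 (not called; 0.0188% of rows were called lower). The H12 endoderm marker sums above moved over the same interval.

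Other Hox genes were lower at 74 h as well. Of 9 Hoxb genes tested, 6 were called lower in the deletion clones, with a list median of -0.76 against -0.02 over all rows; Hoxb5 (-0.84 ± 0.24) and Hoxb8 (-0.74 ± 0.21) followed the pair. All 5 group 3 and 4 genes of other clusters, which lie on other chromosomes, were lower too, Hoxd3 by -1.78 ± 0.18 and Hoxd4 by -1.62 ± 0.18 the most firmly. At 48 h 1 of the 9 Hoxb genes (Hoxb3) and 3 of the 5 others were called lower, among them Hoxd3 at -1.54 ± 0.19. In E3 alone at 74 h the counts were 3 of 9 and 2 of 5, and in H12 alone 3 of 9 and 5 of 5. For scale, 9.40% of all rows were called lower in the deletion clones at 74 h and 2.52% at 48 h. At 74 h the share was 2.96% in E3 alone and 12.9% in H12 alone.

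Of the 9 cofactors 4 were lower at 74 h, where 9.40% of rows were called lower, among them Pknox1 (-0.66 ± 0.15) and Meis1 (-0.75 ± 0.18). Of 18 RA pathway genes 3 were higher, among them Stra6 (1.13 ± 0.19), and 2 lower, Ncor1 (-0.62 ± 0.17) and Rarb (-0.57 ± 0.18). In all, 1220 of 15924 rows were called higher there. None of the 10 tested factors of Hoxb3 or Hoxb4 regulatory DNA was called in that comparison. Of the noncoding RNAs of the cluster, Hoxb5os was lower at -1.08 ± 0.21 and Mir10a at -1.88 ± 0.55 (38 reads in G4, 17 in E3 and 5 in H12). Gm53 was higher at 1.53 ± 0.26. The 91 tested genes within 2 Mb of the cluster had a median of 0.09 at 74 h, with 11 called higher and 4 lower. Farther off, the 348 tested genes in the first 60 Mb of chromosome 11, which does not include the cluster, had medians from -0.26 at 0 h to -0.34 at 74 h in the same comparison.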

How the data were processed

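RNA of 25 E14, 12 SCC1-mAID and 42 clone libraries was sequenced as paired 42 bp reads after ribosomal RNA depletion with a directional kit, with Drosophila SG4 cells mixed in, per the labels' protocols. The submitters' processing notes name STAR, Bowtie2, SAMtools and DESeq2 and the builds mm10 and dm6; versions and settings are not given in the sources used here. The deposited signal is a read count divided by a size factor, per the file headers and the values, and the authors deposited FPKM beside it for E14 and a class of response per transcript. Whole reads were recovered from the signal, and at least 99.996% of values came out whole within 0.1 read. SCC1-mAID rows were named from the other tables (28995), from RefSeq (5291) or left unnamed (1040).

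The recovered reads were fitted with edgeR 4.0.16 (limma 3.58.1, statmod 1.5.0, R 4.3.3) by robust quasi-likelihood over all groups of a set, with TMM scaling, filterByExpr and Benjamini-Hochberg adjustment over all rows. TMM rests on the fitted rows alone, so it takes no account of the Drosophila reads. The SE is the log2 fold change divided by the root of F. Each gene other than Hoxb3 had 1 row, the transcript with the most reads. Since the deposited unit was taken as a signal, limma on log2(signal + 1) was an alternative, as was DESeq2 1.42.0. Other alternatives were the scaling, the filter, the samples fitted, a replicate block, all transcripts as rows and leaving out each library. Counting intervals are exact at 95% and cover counting error only. The fitting script was tested on simulated data. Promoter letters came from RefSeq, which held 1 of the 2 genes, Hoxb4 and not Hoxb3.

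The members and gene lists were chosen with earlier results of these data known. From each list up to 4 called genes with the smallest adjusted p were to be named per comparison, and the 5 genes most like each member by Pearson's r. Genes beyond that rule (Hoxb1 in SCC1-mAID, Gm53) are members of fixed lists. Some genes that this rule would name are not reported here.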

Additional observations from a re-analysis of the deposited data

Results flagged for a closer look

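The long Hoxb3 level of E14 replicate 2 at 2 h was 0.537 CPM, far below the other 3 libraries (1.31 to 1.43 CPM). Its gap to the nearest library, as a share of the group's range, exceeded Dixon's critical value. That library held 5 reads, against 14, 10 and 13 in the others. The 15 checks took each of the 3 transcripts in the E14 groups of 4 libraries. Long and short Hoxb3 share most of their reads there, so the checks are not independent. Chance marks about 1 check in 20.

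The change in Hoxb3 from 48 to 74 h differed between clones. Against G4, H12 was lower by -1.40 for the long transcript and -1.41 for the short one, and against E3 by -1.19 and -1.46, all called by edgeR (adjusted p = 8.30e-04, 0.0087, 0.00773 and 0.0139). For Hoxb4 the same contrasts were -0.80 and -0.80 and were not called (adjusted p = 0.0950 and 0.129). Over this interval the extra-embryonic endoderm marker sum rose from 2422 to 2735 CPM up to 12500 to 14090 CPM in H12, and its part in the result was not tested.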

How the results depend on the processing

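Of the values of the main comparisons under alternatives that keep all libraries, 639 kept direction and side of the threshold, 14 gained a call, 14 lost one, 6 changed sign and 3 moved. In E14, Hoxb3 at 2 h was called with DESeq2 (2.83), the replicate block (3.05) and replicates 3 and 4 only (2.89). The 48 h against 24 h step was called with the block (Hoxb3 0.87, Hoxb4 0.61) and with replicates 3 and 4 (0.71 and 0.77). In SCC1-mAID, auxin alone turned sign for Hoxb3 without the short span (2.08) and for Hoxb4 in limma (-0.23), and Hoxb4 under auxin and RA turned with the authors' factors (-0.29) and limma (-0.28). The Hoxb3 to Hoxb4 ratio moved with the short span (RA -2.40, auxin and RA -2.59). For the deletion clones against G4, Hoxb3 was called at 4 h with DESeq2 (-0.75), the block (-0.76) and all transcripts (-0.75), and at 24 h with the block (-0.55) and all transcripts (-0.56). At 48 h it was lost in limma (-0.64) and with only the compared groups (-0.63). In the same 2 settings E3 against G4 was lost at 24 h (-0.93 and -0.93) and 48 h (-0.92 and -0.91), E3 against H12 at 48 h (-0.55 and -0.56), and the 48 to 74 h change of H12 against E3 (-1.15 and -1.16); that of Hoxb4 in E3 against G4 turned sign (0.0060 and 0.0035). Limma also lost E3 against H12 at 24 h (Hoxb3 -0.78, Hoxb4 -0.94) and 74 h (Hoxb3 0.60), and called the Hoxb3 response at 2 times. By edgeR the 74 h difference of Hoxb3 between E3 and H12 was lost without the short span (0.54). Hoxb4 in E3 against G4 at 74 h was called with the block (-0.70) and only the compared groups (-0.67). The cause was not tested.

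Leaving out 1 library at a time, with a lone library assumed to vary like other groups, gave these ranges. In E14, Hoxb3 spanned 2.69 to 4.34 at 4 h and -0.00061 to 0.36 for 72 h against 48 h, and Hoxb4 2.76 to 4.40 at 2 h, 0.31 to 0.75 for 48 h against 24 h and -0.47 to 0.0138 for 72 h against 48 h. In SCC1-mAID, the interaction spanned -0.76 to 0.57 (Hoxb3) and -1.06 to 0.21 (Hoxb4), and auxin alone -0.14 to 1.12 (Hoxb4). For the deletion clones against G4, Hoxb3 spanned -1.01 to -0.43 at 4 h, -0.79 to -0.28 at 24 h and -0.75 to -0.55 at 48 h, with 0 to 1 response calls, and Hoxb4 -0.23 to 0.62 at 2 h, -0.42 to 0.0717 at 6 h and -0.72 to -0.37 at 48 h. The short Hoxb3 span ran from -1.71 to 0.0168 at 2 h and -0.32 to 0.33 at 6 h. For E3 against G4, Hoxb3 spanned -1.24 to -0.65 at 24 h and -1.05 to -0.80 at 48 h. For H12 against G4, it spanned -0.98 to -0.42 at 4 h and -0.42 to 0.0936 at 24 h, and Hoxb4 -0.15 to 0.39 at 24 h. For E3 against H12, Hoxb3 spanned -1.06 to -0.49, -0.77 to -0.33 and 0.51 to 0.68 at 24, 48 and 74 h, and Hoxb4 -1.21 to -0.66 and -0.65 to 0.0803 at 24 and 48 h. The 48 to 74 h change spanned -1.38 to -0.93 for Hoxb3 in H12 against E3, and -0.17 to 0.15 (E3) and -1.12 to -0.39 (H12) for Hoxb4 against G4.

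The labels do not say that a replicate number marks a shared culture or batch, and not every same-numbered pair correlated above 0.1, so the libraries were not treated as paired. Same-numbered libraries correlated at -0.285 to 0.777 among E14 libraries, -0.529 to 0.453 among SCC1-mAID libraries and -0.458 to 0.643 among clone libraries, and 16 of 25, 8 of 12 and 40 of 42 libraries correlated best with their own number. In the clones the median was 0.176 for the same number, a hint from the data, not the design. The median of -0.176 for different numbers is its mirror image by construction. Each clone group held 2 libraries, taken as deviations from their mean, so it adds no contrast. With the block, 8 values gained a call and 85 kept theirs. Few reads limit both genes at 0 h.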
